A study of Mus with 12 samples.

Results

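The regulatory T cell genes described here are Foxp3, Il2ra, Ikzf2, Tnfrsf18, Tnfrsf4 and Entpd1. They were chosen by name, and all 6 were found among the 770 genes of the nCounter mouse IO360 panel, an assay that counts colour-coded probes bound to RNA. The RNA came from mouse liver tumours that had been fixed in formalin and embedded in paraffin, from a model of MYC-driven hepatocellular carcinoma (labelled MYC-HCC). Each of 4 groups held 3 mice, which received a control IgG, an antibody to CTLA4, an antibody to PDL1, or the pair of antibodies (the combination), and each mouse gave 1 library. All groups, the IgG group included, carried the same tumour model. The sources used here do not give the mouse strain or age, the construct that carries MYC, or the antibody clones, doses and times.

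Regulatory T cells are CD4 T cells that restrain other immune cells, and in tumours they can dampen the attack on cancer cells. Foxp3 is the transcription factor that defines them. Il2ra encodes CD25, the chain that gives the interleukin-2 receptor its high affinity. Ikzf2 encodes the transcription factor Helios. Tnfrsf18 and Tnfrsf4 encode GITR and OX40, costimulatory receptors of the TNF receptor family. Entpd1 encodes CD39, an ectoenzyme that degrades extracellular ATP on the way to adenosine. Regulatory T cells also carry much CTLA4, and antibodies against CTLA4 can deplete them in mouse tumours, depending on the isotype. None of the 6 genes except Foxp3 is close to exclusive to these cells: activated T cells express Il2ra, Tnfrsf18 and Tnfrsf4, and macrophages and endothelium express Entpd1.

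Values are normalized counts, and the authors' table lists low values at a floor of 20. A gene listed at 20 is taken as not measured there, below a limit that depends on the library's normalization factor. This rule was inferred from the values. The limit was 20 to 22.08 normalized counts in the IgG libraries. It reached 42.02 in Anti PDL1 2, 44.96 in Anti CTLA4 1, 52.49 in Anti CTLA4 2 and 35.86 in Anti PDL1+CTLA4 2, and was at most 24.6 in the other treated libraries. Library totals ran from 439149 to 864464 recovered barcode counts. Of 14 measured T cell markers, 4 lay above the floor in all 12 libraries (Cd3e, Cd4, Lck and Cd28), 1 (Sh2d1a) was at the floor in all, and the others were at the floor in some, such as Cd3d in 5 and Cd5 in 11. The hepatocyte genes Apoe, Arg1, Fbp1, Tdo2 and Serpina1a were also above the floor in each library.

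Of the 72 values of the 6 genes, 38 were listed at the floor. Foxp3 and Il2ra accounted for 24 of them, Tnfrsf18 for 7, Ikzf2 for 5, Tnfrsf4 for 2 and Entpd1 for 0. For the 4 genes that were measured in some library, all 12 values of the IgG mice lay above the floor, against 9 of 12 under the combination, 6 of 12 under anti-CTLA4 and 7 of 12 under anti-PDL1. The panel as a whole also had more floor values in treated mice: of 770 genes, 49 to 91 were at the floor in IgG libraries, 84 to 154 in combination libraries, 113 to 210 in anti-CTLA4 libraries and 125 to 151 in anti-PDL1 libraries. The fitted differences from IgG were below 0 for Ikzf2, Tnfrsf18 and Tnfrsf4 in each treated group, and above 0 for Entpd1. Some of these signs turned with the processing: quantile normalization gave 0.08 for Tnfrsf18 under the combination and 0.09 for Tnfrsf4 under anti-PDL1. Under anti-CTLA4, Tnfrsf4 reached 0.23 with sample quality weights and Ikzf2 0.11 with only libraries of low factor. None of these differences passed in the fit of all 12 libraries at equal weights. Ikzf2 passed in some of the other fits given with it. Entpd1 passed in some weighted fits, and so did Tnfrsf18 under anti-PDL1.

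**Figure D1:**
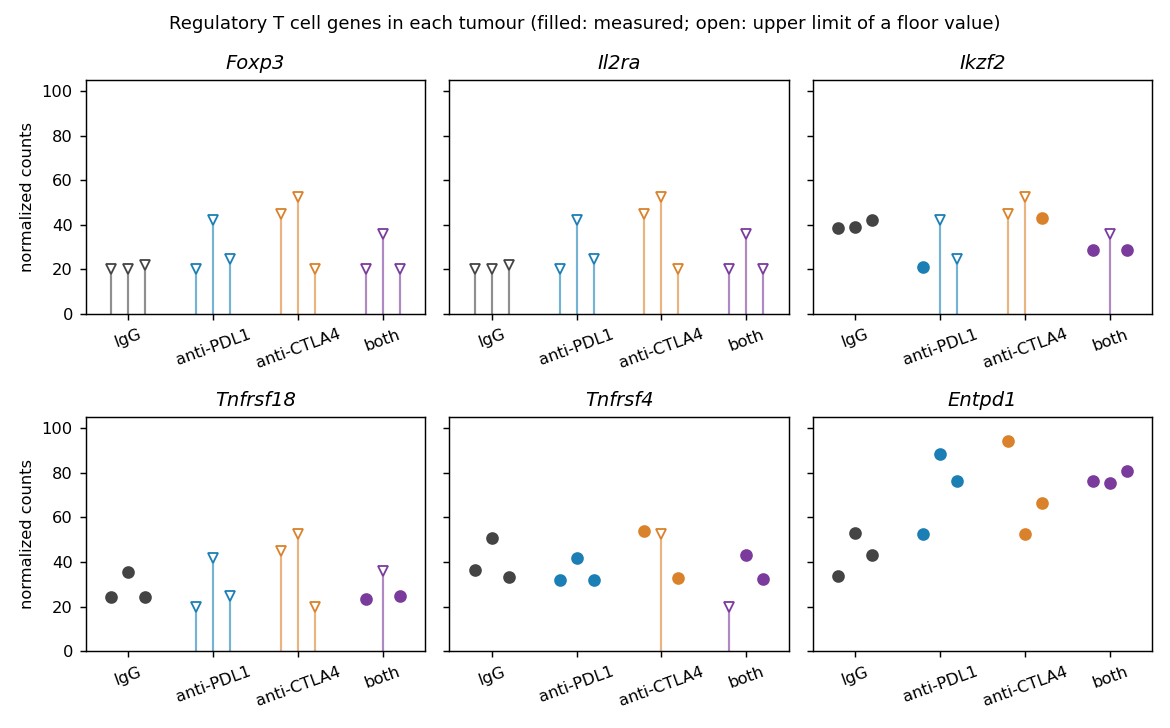
Normalized counts of the 6 regulatory T cell genes in each tumour (vertical axis), by treatment group (horizontal axis, "both" is the combination). Filled points are measured values; open triangles are the upper limits of values listed at the floor, and the line below each spans the values it allows. Foxp3 and Il2ra hold limits only, and Entpd1 is measured in all 12 tumours.

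Foxp3 was listed at 20 in all 3 libraries of each of the 4 groups. The same holds for Il2ra. They are among 25 panel genes listed at the floor in all 12 libraries. The data set only an upper limit on both, 20 normalized counts in the libraries with the lowest limit and 52.49 in Anti CTLA4 2. No fold change between groups exists for either gene, and a difference below these limits was not detectable. In bulk RNA, fewer cells of a type and less RNA per cell cannot be told apart.

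The other chains of the interleukin-2 receptor were well above the floor. Il2rb, the signalling chain shared with interleukin-15, had 112.05, 101.21 and 197.62 normalized counts under IgG, 228.9, 360.35 and 154.9 under the combination, 350.69, 120.74 and 239.65 under anti-CTLA4, and 97.88, 313.07 and 167.27 under anti-PDL1. The groups overlapped. Il2rg, the common gamma chain of several cytokine receptors, had 48.36, 44.42 and 39.74 under IgG and 81.46 to 340.38 in the 9 treated libraries, each of which lay above every IgG library, an order found in 22.7% of panel genes under the combination, 18.7% under anti-CTLA4 and 13% under anti-PDL1. Its log2 fold change was 1.73 under the combination (SE 0.464, limma adjusted p = 0.0945), 1.26 under anti-CTLA4 (adjusted p = 0.207) and 1.78 under anti-PDL1 (adjusted p = 0.082), so none passed. Il2, the ligand, was above the floor in 1 library, Ctrl IgG 2, at 43.86.

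Ikzf2 was the member with the tightest IgG values. It had 38.69, 38.8 and 41.95 normalized counts in the 3 IgG mice, a mean of 39.81 ± 1.85 (SD, n = 3). Under anti-PDL1 it had 21.02 in the first mouse and was at the floor in the others, with limits of 42.02 and 24.6. Under anti-CTLA4 it was at the floor in mice 1 and 2, with limits of 44.96 and 52.49, and stood at 43.06 in mouse 3. Under the combination it had 28.61, a floor value with a limit of 35.86, and 28.61. All 3 combination libraries therefore lay below all 3 IgG libraries, and so did 2 of 3 under anti-PDL1; the limit of Anti PDL1 2 reaches into the IgG range. Under anti-CTLA4 the 1 measured library lay above every IgG library, and both limits of the others lie above the IgG range, so that these mice give no order. That order, all 3 treated libraries below every IgG library, was found in 8.7% of panel genes under the combination, 7.14% under anti-PDL1 and 4.42% under anti-CTLA4.

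With floor values set to their limits, the geometric mean of Ikzf2 was at least 1.29-fold lower under the combination and at least 1.43-fold lower under anti-PDL1 than under IgG, and no bound exists for anti-CTLA4. The fitted log2 differences, which take floor values as measured and are no estimates, were -0.63 under the combination (limma adjusted p = 0.308), -0.93 under anti-PDL1 (limma adjusted p = 0.0939) and -0.60 under anti-CTLA4 (limma adjusted p = 0.232). The calls depended on 1 library: without Anti CTLA4 3, the tumour with 43.06, Ikzf2 passed against IgG under the combination (limma adjusted p = 0.0364) and under anti-PDL1 (0.00391). The anti-CTLA4 group then holds floor values only, both listed at 20 with limits above the IgG range, so that its p (0.0073) says nothing of this gene, and the common estimate of spread includes a group with none. With only the IgG and anti-PDL1 libraries in the fit the limma adjusted p was 0.00397. With only the 7 libraries of low factor, the combination had a log2 difference of -0.46 (limma adjusted p = 0.0409), and the 1 remaining anti-CTLA4 library a difference of 0.11. With sample quality weights by limma's default estimation, which did not converge, Ikzf2 passed in all 3 comparisons with IgG (adjusted p = 0.0057 under anti-CTLA4, 0.00026 under anti-PDL1 and 0.0114 under the combination). With a common floor at the highest limit no difference was left.

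Tnfrsf18, the GITR gene, had the lowest levels of the 4 measured members. It had 24.18, 35.42 and 24.29 normalized counts under IgG (mean 27.96 ± 6.46, SD, n = 3). It was listed at the floor in all 3 anti-PDL1 and all 3 anti-CTLA4 libraries. Under the combination it had 23.48 and 24.67 in mice 1 and 3 and a floor value in mouse 2. The limit lay below the lowest IgG value in 1 anti-PDL1 mouse (limit 20) and 1 anti-CTLA4 mouse (limit 20), and reached the IgG range in the others of both groups. In the combination group 1 library lay below every IgG library, 1 lay within the IgG range and 1 had a limit that reached it.

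The pattern of Tnfrsf18, above the floor in all IgG libraries and at the floor in all treated ones, was shared by 4.42% of the panel under anti-PDL1 and 3.9% under anti-CTLA4; 3.12% of the panel had it under the combination, where Tnfrsf18 did not. The fitted log2 difference was -0.44 in each of the 2 comparisons, with a limma adjusted p of 0.109 under anti-PDL1 and 0.151 under anti-CTLA4. Under the combination it was -0.27 (adjusted p = 0.367). With sample quality weights by either REML estimation, which did not converge, Tnfrsf18 passed under anti-PDL1 (lowest limma adjusted p = 0.0139). With every library held to the highest limit as a common floor, Tnfrsf18 was at the floor throughout and no difference was left. Its ligand gene Tnfsf18 was measured in all 12 libraries, between 29.81 and 54.54 normalized counts in IgG mice, between 37.49 and 62.75 in combination mice, between 44 and 94.42 in anti-CTLA4 mice and between 32.85 and 54.63 in anti-PDL1 mice. The 4 ranges overlapped, and the largest log2 fold change of Tnfsf18, 0.68 under anti-CTLA4 (SE 0.346, limma adjusted p = 0.28), did not pass.

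Tnfrsf4, the OX40 gene, showed no order between groups. It had 36.27, 50.61 and 33.12 normalized counts under IgG (SD 9.32, n = 3) and 32.19, 42.02 and 31.98 under anti-PDL1. Under anti-CTLA4 it had 53.95, a floor value with a limit of 52.49, and 32.76. Under the combination it was at the floor with a limit of 20 in mouse 1, and had 43.03 and 32.56 in the others. With the floor value set to its limit, its geometric mean there was at least 1.29-fold lower than under IgG. Ikzf2 had the same bound under the combination, so a bound of this size also arises without an order between groups. The highest of the 12 values was in Anti CTLA4 1 and the lowest limit in Anti PDL1+CTLA4 1, both of them treated mice. The log2 difference from IgG was -0.16 under anti-PDL1 (95% interval -0.99 to 0.67, limma adjusted p = 0.859), -0.25 under anti-CTLA4 (adjusted p = 0.663) and -0.36 under the combination (adjusted p = 0.739). The interval under anti-PDL1, the treated group in which Tnfrsf4 was measured in all 3 mice, leaves room for changes in either direction. Tnfsf4, which encodes the OX40 ligand, was above the floor in 2 IgG libraries, at 20.15 and 41.05, and in no other library.

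**Figure D2:**
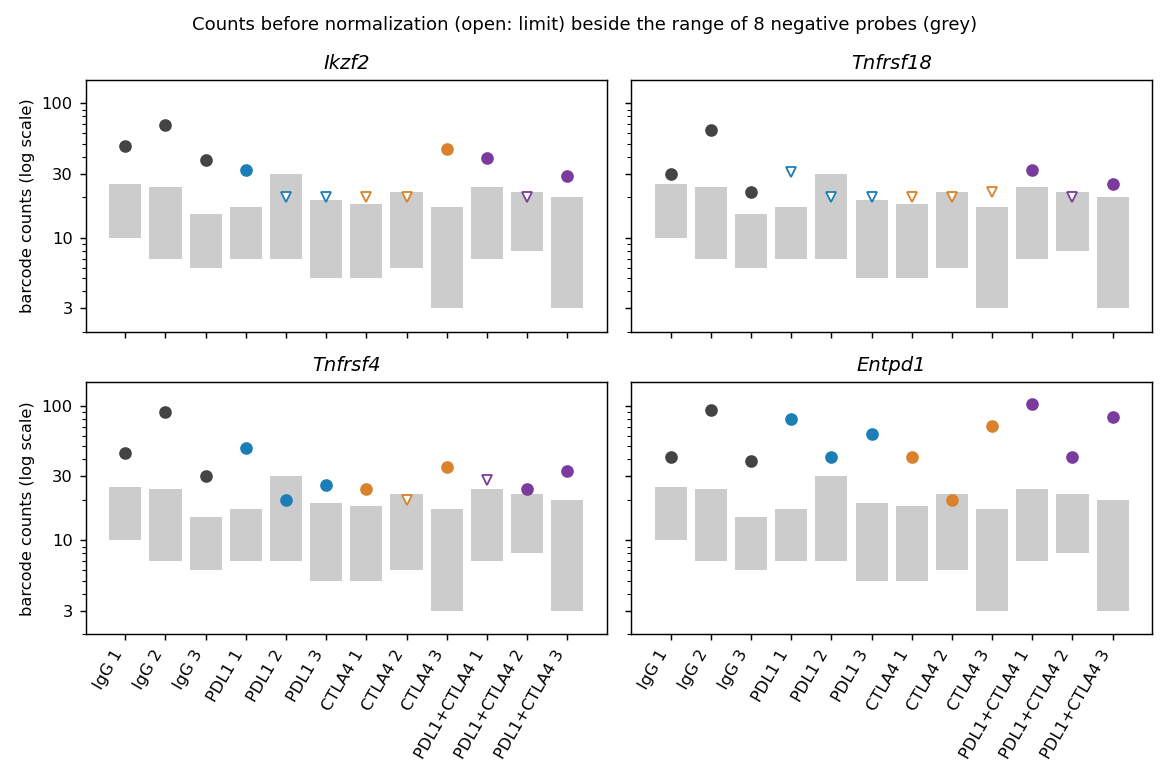
Barcode counts before normalization (vertical axis, log scale) of the 4 measured members in each of the 12 libraries. Filled points are counts recovered from the normalized values, open triangles are the limits of floor values, and the grey bars span the 8 negative control probes of the same library. Points of Tnfrsf18 and Tnfrsf4 lie close to the grey bars, and Entpd1 in Anti CTLA4 2 and Tnfrsf4 in Anti PDL1 2 lie within them.

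These levels were close to the background of the assay. Ikzf2 had 29 to 69 recovered counts where it was measured, Tnfrsf18 22 to 63, Tnfrsf4 20 to 90 and Entpd1 20 to 104. Negative probes, which have no target in the sample, averaged 9.38 to 14.88 counts per library. Each measured value of Ikzf2 (7 of 7) and Tnfrsf18 (5 of 5) exceeded the highest negative probe of its own library. So did 9 of 10 values of Tnfrsf4 and 11 of 12 of Entpd1; the exceptions were Tnfrsf4 in Anti PDL1 2, with 20 counts against a highest negative probe of 30, and Entpd1 in Anti CTLA4 2, with 20 against 22.

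Entpd1, the CD39 gene, was the member with the highest level, and its differences had the opposite sign. It had 33.86, 52.85 and 43.06 normalized counts under IgG (mean 43.3 ± 9.5, SD, n = 3). It had 52.55, 88.25 and 76.25 under anti-PDL1 (mean 72.3 ± 18.2), 94.42, 52.49 and 66.46 under anti-CTLA4 (mean 71.1 ± 21.4), and 76.3, 75.3 and 80.9 under the combination (mean 77.5 ± 2.99). All 3 combination libraries lay above all 3 IgG libraries, the order of 22.7% of panel genes. Under each single antibody 2 of 3 libraries did, and the third lay just under the highest IgG value; 13% of panel genes under anti-PDL1 and 18.7% under anti-CTLA4 had all 3 above. The ranges of the 3 treated groups overlapped.

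The log2 fold change of Entpd1 against IgG was 0.85 under the combination (SE 0.278, 95% interval 0.22 to 1.48, limma adjusted p = 0.18), 0.72 under anti-PDL1 (interval 0.09 to 1.35, limma adjusted p = 0.203) and 0.69 under anti-CTLA4 (interval 0.06 to 1.31, limma adjusted p = 0.219). None passed after adjustment over the 770 genes. With sample quality weights by limma's default estimation, which did not converge, all 3 passed (adjusted p = 0.00324 under the combination, 0.00195 under anti-PDL1 and 0.00788 under anti-CTLA4), and the call under anti-CTLA4 was lost again when the weights were estimated on the 519 genes above the floor (adjusted p = 0.296). The median log2 fold change of the 519 genes above the floor in all libraries, Entpd1 among them, was 0.28 under the combination, 0.32 under anti-PDL1 and 0.51 under anti-CTLA4, and that of all 770 genes, floor values included, was 0.03, 0.07 and 0.17. With each library scaled to the same median of these genes, the log2 fold change of Entpd1 fell to 0.40, 0.23 and 0.11. With the negative probe mean subtracted from the counts it was 0.92, 0.73 and 0.32 (limma adjusted p = 0.521, 0.469 and 0.675), and Anti CTLA4 2 then stood at 16.1 normalized counts.

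**Figure D3:**
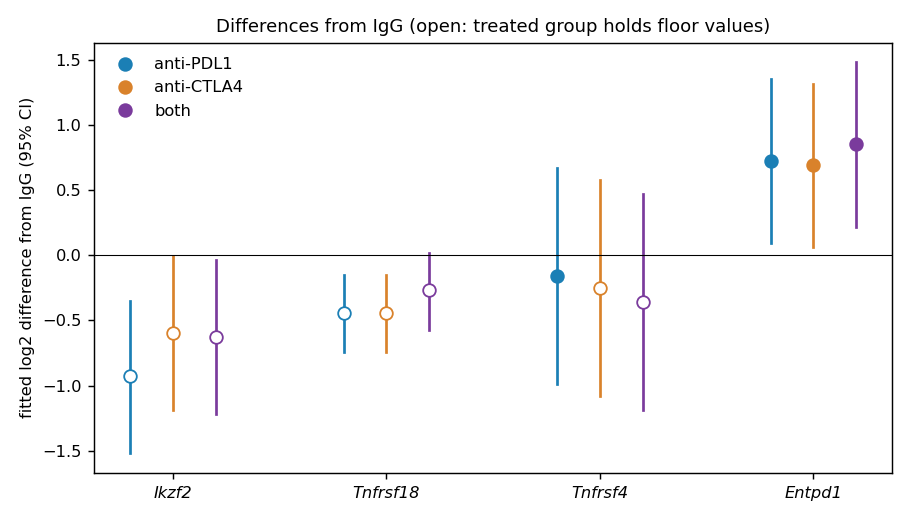
Fitted log2 differences from IgG (vertical axis) with 95% confidence intervals for the 4 measured members (horizontal axis), from the limma fit of all 12 libraries. Open points mark treated groups that hold floor values, whose differences are no estimates. The points of Ikzf2 and Tnfrsf18 lie below 0, but the interval of Tnfrsf18 under the combination (-0.57 to 0.02) crosses 0. Quantile normalization turns that point to 0.08, and use of only low factor libraries turns Ikzf2 under anti-CTLA4 to 0.11. Tnfrsf4 has intervals across 0 and Entpd1 lies above 0 under each treatment.

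Across the panel, the limma test with adjustment over all genes called 0 of the 6 members under the combination, against 2.86% of all genes, 0 of 6 under anti-PDL1, against 2.99%, and 0 of 6 under anti-CTLA4, against 2.6%. Of the 519 genes above the floor in all libraries it called 0 under the combination, 2 under anti-PDL1 and 0 under anti-CTLA4. The other panel calls were of genes with floor values, whose fitted differences are no estimates. At an unadjusted p under 0.05, the same fit had Ikzf2 and Entpd1 under the combination (15.5% of the panel), and Ikzf2, Tnfrsf18 and Entpd1 under anti-PDL1 (19% of the panel) and under anti-CTLA4 (21.4% of the panel). The median log2 difference of the 6 members was -0.14 under the combination, -0.08 under anti-PDL1 and -0.13 under anti-CTLA4, beside 0.03, 0.07 and 0.17 over all panel genes; Foxp3 and Il2ra enter at 0, as values never measured.

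Adding one antibody to the other changed no member past the threshold at equal weights. Against anti-PDL1 alone, the combination had log2 differences of 0.31 for Ikzf2, 0.17 for Tnfrsf18, -0.20 for Tnfrsf4 and 0.13 for Entpd1, each with a limma adjusted p of 1; with the default quality weights, which did not converge, Ikzf2 passed (adjusted p = 0.0236). Of the panel, 0% passed, and 0.649% had an unadjusted p under 0.05. Against anti-CTLA4 alone, the differences were -0.03, 0.17, -0.11 and 0.16 in the same order (limma adjusted p of 0.733 or more), and again 0% of the panel passed, with 4.29% at an unadjusted p under 0.05. The interaction sets the change under both antibodies against the 2 single changes added together. It was 0.91 for Ikzf2 (SE 0.37, limma adjusted p = 0.345) and 0.61 for Tnfrsf18 (SE 0.185, limma adjusted p = 0.266). It was 0.05 for Tnfrsf4 and -0.56 for Entpd1. Of the 6 members 0 passed, against 1.3% of the panel and 0 of the 519 genes above the floor in all libraries. At an unadjusted p under 0.05 Ikzf2 and Tnfrsf18 passed, with 13.8% of the panel. For Ikzf2 and Tnfrsf18 these contrasts rest on floor values, and the limma adjusted p of 0.0102 for Ikzf2 without Anti CTLA4 3 sets floor values alone in the anti-CTLA4 group.

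The genes around the members gave few calls. Of 9 measured ligands, receptor partners and signalling genes of the members, 0 passed in any comparison with IgG, with median log2 fold changes of 0.02 under the combination, -0.04 under anti-PDL1 and 0.67 under anti-CTLA4. Nt5e encodes CD73, the enzyme that completes the step from AMP to adenosine after CD39. It had 217.64, 174.31 and 142.42 normalized counts under IgG and ranged from 73.54 to 388.49 in the treated mice, with no order between groups. Anti CTLA4 3 had the highest Nt5e value and Anti PDL1 2 the lowest.

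Of 14 other measured genes tied to regulatory T cells, 0 passed in any comparison with IgG, with medians of -0.10 under the combination, -0.03 under anti-PDL1 and -0.09 under anti-CTLA4. Ctla4, the target of 1 of the antibodies, had 33.05, 52.85 and 34.22 normalized counts under IgG and was at the floor in all 3 anti-PDL1 libraries, in Anti CTLA4 1 and 2 and in Anti PDL1+CTLA4 2. It stood at 34.64 in Anti CTLA4 3 and at 32.28 and 39.47 in the other combination mice. Its fitted log2 difference was -0.93 under anti-PDL1 (limma adjusted p = 0.122), -0.68 under anti-CTLA4 (0.226) and -0.40 under the combination (0.591).

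Icos, a costimulatory receptor of activated and regulatory T cells, was measured in all libraries and lay between 36.43 and 62.98 normalized counts in IgG mice, between 48.42 and 103.98 in combination mice, between 42.13 and 143.87 in anti-CTLA4 mice and between 32.85 and 174.39 in anti-PDL1 mice. The ranges overlapped, and its limma adjusted p was 0.378 or more in these comparisons. The cytokine gene Il10 was above the floor in Ctrl IgG 2 alone, at 24.18. Tgfb1, which encodes TGF-beta 1, had log2 fold changes of 0.44 to 0.52 in the 3 comparisons (SE 0.219, limma adjusted p = 0.312 under the combination, 0.233 under anti-CTLA4 and 0.339 under anti-PDL1).

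**Figure D4:**
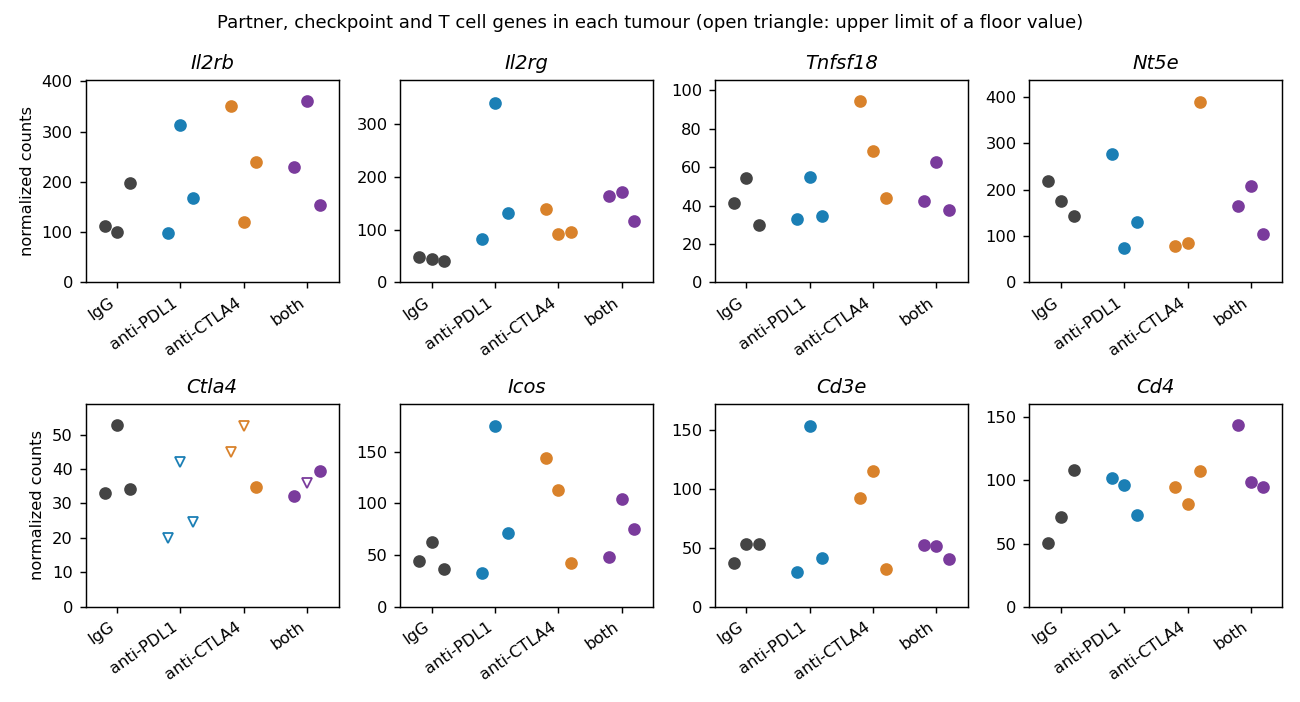
Normalized counts (vertical axes, each with its own scale from 0) in each tumour of 8 genes: receptor partners Il2rb and Il2rg, the GITR ligand gene Tnfsf18, Nt5e, the checkpoint gene Ctla4, Icos and the T cell genes Cd3e and Cd4. Open triangles are upper limits of floor values. Il2rg lies higher in each treated tumour than in each IgG tumour, and Ctla4 holds 6 limits among the 9 treated tumours.

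T cell markers as a list overlapped between all groups. Their score, the mean log2(value + 1) of 14 measured genes, lay between 5.26 and 5.47 in IgG mice, between 5.21 and 5.49 in combination mice, between 5.12 and 5.48 in anti-CTLA4 mice and between 4.90 and 5.70 in anti-PDL1 mice. Floor values enter this score as 20. The markers at the floor numbered 2 to 4 in IgG libraries and 2 to 5 in combination libraries. They numbered 3 to 10 in anti-CTLA4 libraries and 5 to 7 in anti-PDL1 libraries. The overlap of the scores therefore rests in part on values that were not measured. Cd3e, a chain of the T cell receptor complex, ran from 37.08 to 53.42 normalized counts under IgG and from 29.56 to 153.38 in treated mice. Cd4 ran from 50.78 to 108.19 under IgG and from 72.56 to 143.8 in treated mice. Cd8a had 24.99 to 37.54 under IgG and was at the floor in all but 1 of the 9 treated libraries. The limits of Anti PDL1 2 (42.02), Anti CTLA4 1 (44.96) and Anti CTLA4 2 (52.49) lie above these IgG values. That of Anti PDL1+CTLA4 2 (35.86) lies among them. Above the floor in all IgG libraries and at it in all treated ones were 4.42% of the panel under anti-PDL1 and 3.9% under anti-CTLA4. The fitted log2 differences of Cd8a take floor values as measured and are no estimates. They were -0.60 under anti-PDL1 (limma adjusted p = 0.0528), -0.60 under anti-CTLA4 (0.0546) and -0.47 under the combination (0.137). Of the 14 markers, 1 passed as lower under the combination, where 2.86% of the panel passed, and 0 passed under either single antibody. It was Cd8b1, which encodes the other CD8 chain (limma adjusted p = 0.0492). Cd8b1 had 44.16 to 62.41 under IgG and 25.65 in Anti PDL1+CTLA4 3. It was at the floor in the other combination mice, with limits of 20 and 35.86. The part of these markers in the values of Ikzf2 and Tnfrsf18 was not tested.

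Macrophages and endothelium also express Entpd1. Of 11 macrophage and 5 endothelial markers, 0 passed in any comparison with IgG. Their scores lay higher in most treated mice than in IgG mice, but the lowest anti-PDL1 scores met or entered the IgG ranges. The score of 11 macrophage markers, all measured in each library, lay between 7.92 and 8.09 in IgG mice, between 8.58 and 9.11 in combination mice, between 8.29 and 9.42 in anti-CTLA4 mice and between 8.09 and 9.79 in anti-PDL1 mice. The score of 5 endothelial markers, also all measured in each library, was 7.39 to 7.80, 7.92 to 8.37, 8.04 to 8.92 and 7.71 to 9.14 in the same order. Both tumours with the highest Entpd1, Anti CTLA4 1 and Anti PDL1 2, also had the highest macrophage scores, 9.42 and 9.79. They had the highest scores of 5 NK cell markers as well, 6.10 and 6.60, and much Apoe, at 189533 and 455655 normalized counts against 29255 to 40050 in IgG mice. Much Apoe was not particular to them, since Anti CTLA4 2 had 307275. Entpd1 had 42 recovered counts in each of these tumours with the highest Entpd1, as in Ctrl IgG 1. Their normalization factors were 2.248 and 2.101, against 0.806 in Ctrl IgG 1. Anti CTLA4 2 had the second highest endothelial score, 8.92, with the lowest Entpd1 of the treated mice, 52.49 normalized counts. That value rests on 20 recovered counts, fewer than the 22 of the highest negative probe in that library. Anti PDL1 1 had nearly the same Entpd1, 52.55, with the lowest endothelial score of the treated mice, 7.71. The part of these cell types in the Entpd1 values was not tested.

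**Figure D5:**
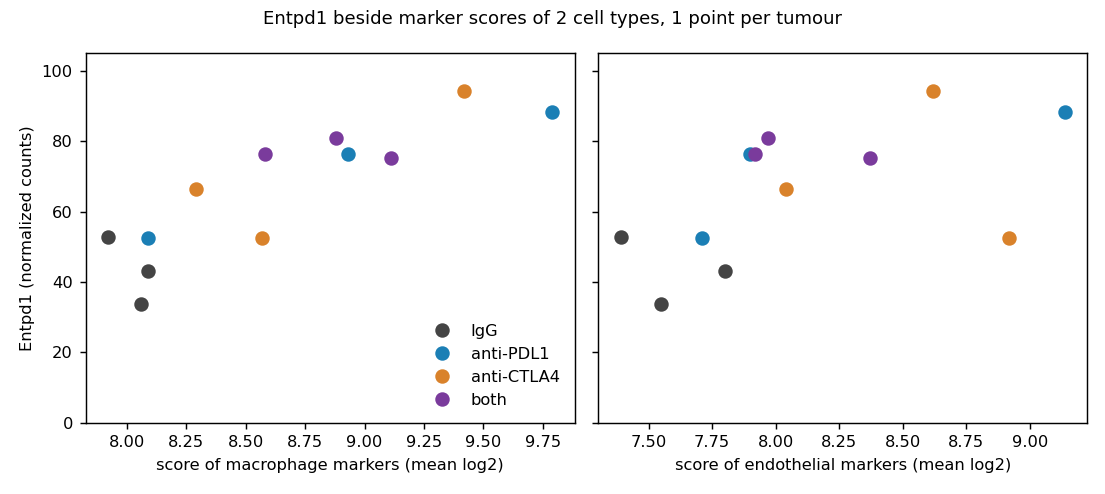
Normalized counts of Entpd1 (vertical axis) against the score of 11 macrophage markers (left) and 5 endothelial markers (right), each the mean log2(value + 1) in 1 tumour; colours give the 4 groups. The 3 IgG tumours sit at the lower left of both plots, and Anti CTLA4 2 has a high endothelial score with 52.49 counts of Entpd1. Before normalization this was 20 counts, within the range of the negative probes.

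Among the 518 other genes above the floor in all libraries, those with the course most like that of Entpd1 over the 12 libraries were H2-Aa (Pearson r = 0.88 of log2 values, Spearman rho = 0.81), C1qa (r = 0.87, rho = 0.90) and Ripk3 (r = 0.86, rho = 0.84). H2-Aa encodes an MHC class II chain of antigen-presenting cells, C1qa a complement chain made by macrophages, and Ripk3 a kinase of necroptosis. For Tnfrsf4 the most similar of 519 genes were Gzma (r = 0.68, rho = 0.67), Ifna1 (r = 0.61, rho = 0.62) and Ccl21a (r = 0.60, rho = 0.53), with 2 libraries of Tnfrsf4 at the floor. These values describe 12 libraries that share 4 treatments and differ in normalization factor, and the genes were picked for their likeness. C1qa lay between 1165.59 and 2087.67 normalized counts in IgG mice and between 2597.9 and 3380.24 in combination mice. Every combination library above every IgG library is an order found in 22.7% of panel genes, Entpd1 included. C1qa was picked for its likeness to Entpd1, so their common order adds no support. H2-Aa had at most 565.25 in IgG mice and at least 809.31 in each treated group. Ikzf2 and Tnfrsf18 were above the floor in 7 and 5 libraries, too few for such a comparison.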

How the data were processed

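The authors deposited 1 table of normalized nCounter counts (a signal, not raw counts) for 770 genes and 14 control probes. The sources used here name neither the software nor the normalization method. Above the floor of 20, at least 99.84% of values per library were whole multiples of 1 factor (0.562 to 2.625), within 0.0075, which gave the recovered counts. The limit of each floor value (20 times the factor where it exceeds 1) was inferred from these values. The search recovered 4 of 4 factors in simulated data. Control probes were not scaled. All 6 members matched RefSeq symbols (GRCm38.p6).

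The limma package (3.58.1, R 4.3.3) tested log2(value + 1) in all 12 libraries, with group means as coefficients, a trend of variance on mean, 8 residual degrees of freedom, two-sided tests, Benjamini-Hochberg adjustment over 770 genes and a threshold of 0.05. In simulated anti-CTLA4 against IgG data of 770 genes it found 39% of changes of 1 log2 unit and 78.6% of changes of 2. "At least" folds set floor values to their limits. A planned count test was not run, because floor values are not counts. The 3 mice per group limit the precision, and recovered counts carry counting error.

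Genes were named by a rule: the members, 12 partner, checkpoint and T cell genes, list genes that passed, and the 3 most similar genes for members above the floor in 9 or more libraries. Il2, Lck, Cd28, Sh2d1a, Cd3d, Cd5 and the hepatocyte genes fall outside it and were picked with their values in view. The members and lists were chosen with earlier results of these data known. The planned sample quality weights did not converge by limma's default estimation; 2 other estimations were added after those calls were seen, and all 3 are given.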

Additional observations from a re-analysis of the deposited data

How the results depend on the processing

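The count of members past the threshold was 0 in each of the 6 comparisons. It moved most with sample quality weights, and there it depended on how the weights were estimated. The default REML estimation stopped with a warning that it had not converged, and so did REML on the 519 genes above the floor. A gene-by-gene estimation, which gave no warning, was chosen after the calls of both were seen, so it is no independent check. Under anti-CTLA4 the default gave 2 members, REML above the floor 0 and gene by gene 2, with 361, 10 and 305 panel genes called. The same 3 estimations gave 3, 3 and 2 members under anti-PDL1 (282, 320 and 104 genes), 2, 2 and 2 under the combination (190, 232 and 157 genes), 1, 1 and 0 for the combination against anti-PDL1, and 3, 1 and 2 in the interaction. The members were Ikzf2 and Entpd1 against IgG, with Tnfrsf18 under anti-PDL1 by both REML estimations, Ikzf2 against anti-PDL1, and Ikzf2 in the interaction, with Tnfrsf18 in the default and gene-by-gene estimations and Entpd1 in the default. The count was 1 (Ikzf2) under anti-PDL1 with only the groups compared, and 1 (Ikzf2) under the combination with only libraries of low factor. With each library left out in turn it ran from 0 to 1 in the comparisons with IgG and in the interaction, the 1 being Ikzf2 without Anti CTLA4 3, which leaves only floor values of it under anti-CTLA4, and was 0 against each single antibody. The cause was not tested.

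Reversals concerned differences that did not pass. Tnfrsf4 under anti-CTLA4 turned to 0.23 (default weights), 0.14 (gene by gene) and 0.01 (common floor), and under anti-PDL1 to 0.09 (quantile normalization). Its interaction turned to -0.20 (quantile), -0.40 (default weights), -0.38 (gene by gene), -0.01 (common floor) and -0.07 (low factor). Tnfrsf18 turned to 0.08 (quantile) under the combination, and Ikzf2 to 0.11 (low factor) under anti-CTLA4. Against anti-CTLA4 the combination turned for Ikzf2 to 0.09 (median scaling), 0.37, 0.23 and 0.34 (the 3 weights), for Tnfrsf4 to 0.01 (median scaling) and 0.09 (REML above the floor), and for Entpd1 to -0.08 (default) and -0.05 (gene by gene). The interaction of Entpd1 turned to 0.05 (median scaling). With single libraries left out, Tnfrsf4 ran from -0.60 to 0.09 under anti-CTLA4, -0.29 to 0.02 under anti-PDL1, -0.44 to 0.09 and -0.45 to 0.24 for the combination against anti-PDL1 and anti-CTLA4, and -0.30 to 0.40 in the interaction. Entpd1 ran from -0.08 to 0.29 and -0.03 to 0.39 in those 2 comparisons, and Ikzf2 from -0.20 to 0.33 against anti-CTLA4.

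Over 27 alternatives, the limma adjusted p of Entpd1 against IgG ran from 0.00324 to 0.521 under the combination, 0.00195 to 0.586 under anti-PDL1 and 0.00788 to 0.78 under anti-CTLA4; those past the threshold were all weighted fits. The labels do not say what a replicate number shares. Correlations of same-numbered pairs ran from -0.61 to 0.75, with 11 of 18 over 0.1, and 7 of 12 libraries were closest to their own number, so the numbers were not taken as pairs. With the replicate block 0 members passed, and 14 genes under the combination (22 without it), 21 under anti-PDL1 (23) and 20 under anti-CTLA4 (20). The count test was not run. The filter at 50 leaves no value for Ikzf2, Tnfrsf18 or Tnfrsf4, and the interaction uses all groups in any case. The floor limits every statement on Foxp3, Il2ra and Tnfrsf18.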
